A study of Arabidopsis thaliana with 12 samples.

Results

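The leaf transcriptome of wild-type Arabidopsis was compared between plants kept under water and plants that were not submerged. The comparison rests on 6 of the 12 arrays of the series. Of these, 3 come from Col wild type after 48 h of submergence (called submerged below), and 3 come from Col wild type that was not submerged (called control). All genes that the annotation pairs with 1 probe set signal of their own were included, which gave 13355 genes. The other 6 arrays come from atg5, a mutant of an autophagy gene whose allele the labels do not name, with 3 arrays after 48 h of submergence and 3 arrays of control plants. Plants of all groups were 28 days old, with 12 h of light followed by a night of 12 h, and submerged whole plants stood 10 cm below the water surface in the same light cycle. The labels place the controls at 0 h and name no control harvested beside the plants of 48 h, so submergence and 48 h of plant age cannot be told apart. The labels call the 3 arrays of a group biological replicates and do not say whether plants were pooled or grown apart, so p-values measure the spread between these arrays.

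Gases diffuse slowly in water, and a submerged leaf receives less carbon dioxide and less light and, at night, less oxygen. Plants under water are known to run short of carbon and energy, to use fermentation when respiration is limited, and to accumulate the gaseous hormone ethylene. Starved plant cells take apart proteins, lipids and whole organelles, partly through autophagy, and use the products as fuel.

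The labelled tissue is leaf. RCA (AT2G39730), the Rubisco activase of mesophyll cells, had a mean log2 signal of 13.36 in submerged and 14.47 in control leaves. PYK10 (AT3G09260), a beta-glucosidase that marks roots, averaged 2.2 in both groups, which is the lowest value of every array and is called the floor below. The guard cell regulator FMA (AT3G24140) averaged 4.19 in submerged and 4.40 in control leaves and did not pass the test. The other guard cell marker measured, AT1G22690, had 7.42, 5.63 and 8.24 in submerged leaves, against 8.84, 9.21 and 9.26 in control leaves, and fell by 2.0 (limma adjusted p = 0.029), a call lost under 6 of 21 alternatives. Of the 2 markers of dividing cells measured, AUR2 (AT2G25880) fell by 0.83, with means of 2.24 in submerged and 3.08 in control leaves, and AUR1 (AT4G32830) averaged 2.43 in submerged and 3.68 in control leaves and did not pass (adjusted p = 0.0602). The part of these cell types in the results was not tested. SWEET11 (AT3G48740), a sucrose exporter of the phloem, averaged 12.42 in submerged and 11.52 in control leaves. The marker lists for xylem, epidermis, flower and seed had 0 members that could be named on the array. In a bulk leaf sample, fewer cells of a type and less RNA per cell cannot be told apart.

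Between 33.8% and 37.5% of the genes of an array lay at the floor, and a value there gives only an upper limit. Of all genes, 3280 (24.6%) were at the floor on all 6 wild-type arrays, which leaves 10075 that could show a change. Arrays of 1 group correlated at 0.985 to 0.993 and arrays of different groups at 0.799 to 0.851 across genes, which are not independent replicates. The submerged replicates did not lie equally far from the controls: among the genes that passed the test, replicate 2 was the farthest from the control mean for 54.5%, replicate 1 for 26.0% and replicate 3 for 19.4%. Control probe sets carry RNA that is not from the plant. The 15 probe sets of the poly-A spikes averaged 5.41 (range 5.15 to 5.69) on submerged and 4.96 (4.94 to 4.97) on control arrays, a difference of 0.46 that did not overlap between groups (two-sided exact permutation test, p = 0.1, the smallest p that 3 against 3 arrays allow). The 9 probe sets of the hybridization spikes averaged 8.66 on submerged and 8.82 on control arrays (exact permutation p = 0.3). The part of these shifts in the results was not tested.

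After 48 h of submergence a large share of the leaf transcriptome differed from the controls, in both directions and at all sizes. In all, 5678 of 13355 genes passed the test (42.5%), and of these 2728 rose (20.4% of all genes) and 2950 fell (22.1%). Of the 10075 genes above the floor on at least 1 wild-type array, 56.4% passed. The test was limma over all 12 arrays with Benjamini-Hochberg adjustment over all genes and a threshold of 0.05, and all differences below are submerged minus control on the log2 scale with their standard error (SE). The median difference was 0 over all genes and -0.03 over the genes above the floor. The 3 submerged signals did not overlap the 3 control signals for 46.7% of all genes. Centring each array on its median raises every difference, the median of all genes by 0.3, and then 8393 genes rose and 2491 fell. Of those 8393 genes, 3242 were at the floor on all 6 wild-type arrays. Without submerged replicate 2, 2565 genes rose and 2715 fell. The counts of the lists below stand against these shares of 20.4% and 22.1%, and a list with about as many calls as genes at large shows nothing about its members as a group. Each list counts only members that the annotation names, so it need not cover a whole family or pathway.

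**Figure D1:**
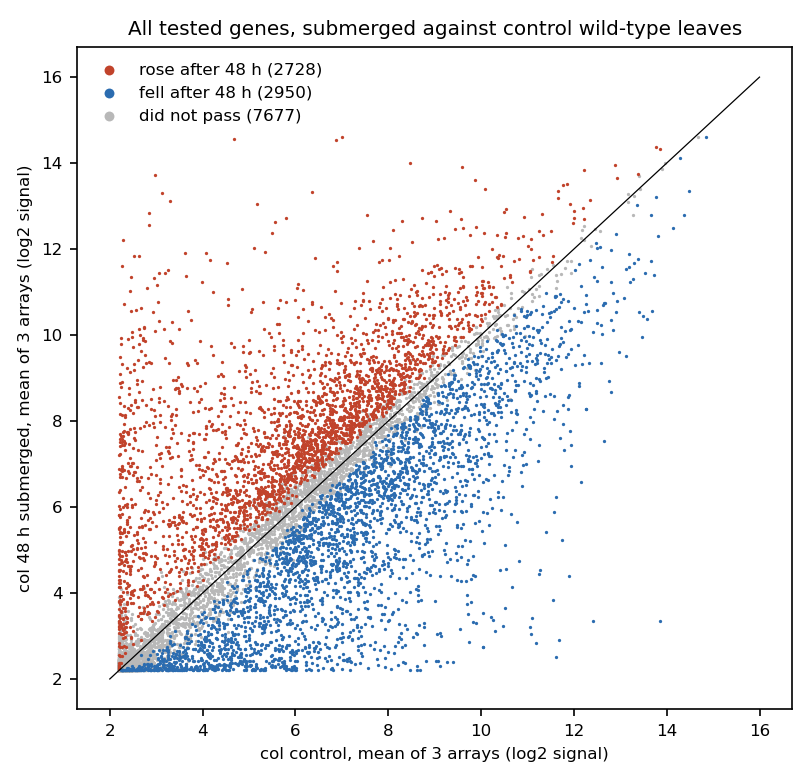
Mean log2 signal of each of the 13355 genes on the 3 submerged arrays (vertical axis) against the 3 control arrays (horizontal axis), with the line of equal signal. Red points are the 2728 genes that rose, blue points the 2950 that fell and grey points those that did not pass, and genes lined up at 2.2 lie at the floor.

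Most of the changes were moderate. The median size of a called change was 1.48 on the log2 scale, with a median of 1.41 among rises and -1.57 among falls. Changes under 0.5 made up 7.47% of the calls, and 34.6% lay between 1 and 2. Changes of at least 2-fold numbered 1838 rises and 2104 falls, or 29.5% of all genes. The far end was heavier on the rising side, with 94 rises and 41 falls of 6 or more. A further description is the switch from the floor: 42 genes at the floor on all 3 control arrays rose by 2 or more, and 37 genes at the floor on all 3 submerged arrays fell by 2 or more.

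The direction went with the level in control leaves. Among the 2501 genes with a control mean between 5 and 7, 36.3% rose and 32.8% fell. Among the 796 genes between 9 and 11, 20.1% rose and 62.7% fell, and among the 220 genes between 11 and 13, 12.3% rose and 75.0% fell. The median difference of that last class was -1.69. These classes use the control arrays that also enter the difference, so they are given as a description with no test. Calls were spread over the nuclear chromosomes: among genes above the floor, 26.3% to 28.7% rose and 27.5% to 30.1% fell on chromosomes 1 to 5.

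**Figure D2:**
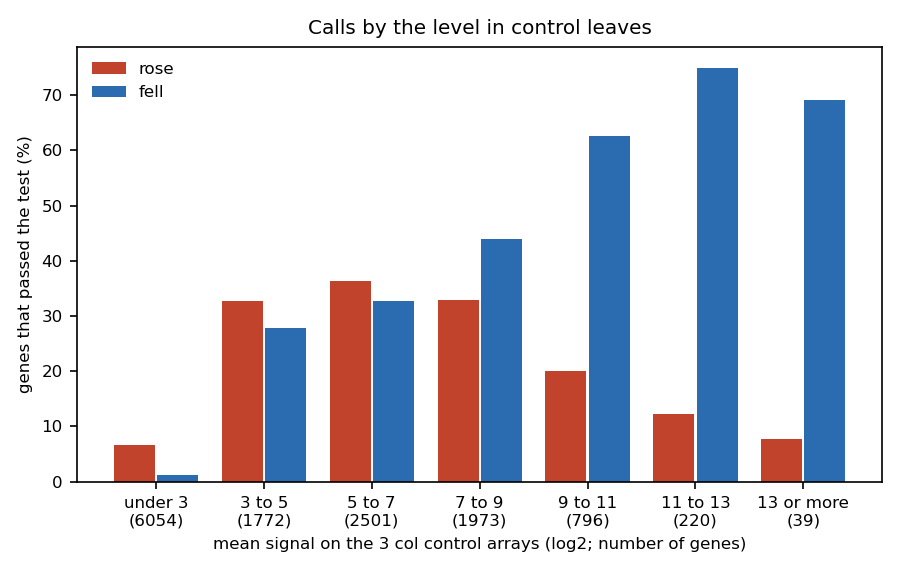
Share of genes that rose (red) or fell (blue), in percent of the genes of each class, by the mean log2 signal on the 3 control arrays, with the number of genes in brackets. Falls outnumber rises in every class from 7 upward, and reach 75.0% of the genes between 11 and 13.

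Genes near the middle of the size range show what a typical change looked like. PGY1 (AT2G27530), a ribosomal protein, had signals of 9.97, 9.62 and 9.83 in submerged leaves, against 11.15, 11.28 and 11.47 in control leaves, a change of -1.49 ± 0.16 (SE). ATLIG4 (AT5G57160), a DNA ligase, stood at 5.58, 6.0 and 6.37 in submerged leaves, against 4.11, 4.46 and 4.92 in control leaves, a rise of 1.49 ± 0.29. In neither gene did the groups overlap, which holds for most called genes (5575 of 5678). NOL (AT5G04900), a chlorophyll b reductase, differed by -1.47, the kinase gene PTI1-4 (AT2G47060) by -1.50, CYP71B34 (AT3G26300) by -1.48 and PRAF1 (AT1G76950) by 1.47. In a fit of only the 6 col arrays CYP71B34 no longer passed (limma adjusted p = 0.0815).

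At the far end, among genes measured at least 2 log2 units above the floor in both groups, the 5 largest rises were 2 loci of consecutive number and 3 others. AT4G12500 had 14.54, 14.68 and 14.45 in submerged leaves, against 3.30, 6.71 and 4.03 in control leaves, and rose by 9.88 ± 0.72. Its neighbour AT4G12490 reached 14.52, 14.63 and 14.47 in submerged leaves, against 5.16, 9.59 and 5.90 in control leaves. Control replicate 2 was the highest control for both loci, and cross-hybridisation between them was not tested. AT2G18690 rose by 7.89 ± 0.33, the class III peroxidase PRX71 (AT5G64120) by 7.6 ± 0.43 and the subtilase SBT3.5 (AT1G32940) by 7.16 ± 0.44. On the falling side, AT4G30650 had 4.35, 2.80 and 6.02 in submerged leaves, against 11.66, 12.28 and 11.77 in control leaves, and fell by 7.51 ± 0.66. AT1G73600 fell by 6.80 ± 0.31, the plastid chaperonin subunit Cpn60beta2 (AT3G13470) by 6.74 ± 0.33, AT4G34950 by 6.51 ± 0.46 and the phosphoethanolamine methyltransferase PMEAMT (AT1G48600) by 6.06 ± 0.37. The groups of these 10 genes, picked for their size, did not overlap, as for 5575 of the 5678 called genes.

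Nuclear genes of the photosynthetic membranes fell almost as a set. Of 22 measured genes of light harvesting and thylakoid proteins, 19 fell, 2 rose and 1 did not pass, with a median of -2.01 against 0 over all genes. This list was bright, with a median control signal of 10.63. Bright genes at large also fell: with a control mean between 9 and 11, 62.7% of all genes fell, with a median of -0.88. CaS (AT5G23060), a calcium-sensing protein of the thylakoid, had 7.21, 6.16 and 7.48 in submerged leaves, against 12.02, 11.85 and 11.93 in control leaves, and fell by 4.99 ± 0.33 (limma adjusted p = 3.26e-06). Every submerged signal of CaS was below every control signal by more than 4 log2 units. LHCB4.3 (AT2G40100), an isoform of the minor antenna protein CP29, fell by 4.15 ± 0.40 and its relative LHCB4.2 (AT3G08940) by 3.21 ± 0.36. HCF101 (AT3G24430), an iron-sulfur cluster assembly protein for photosystem I, fell by 3.84 ± 0.40, and the photosystem II subunit PSBY (AT1G67740) by 2.33 ± 0.23. TAAC (AT5G01500), the thylakoid ATP/ADP carrier, went the other way with 7.67, 8.15 and 8.06 in submerged leaves, against 5.98, 6.06 and 6.27 in control leaves, a rise of 1.86 ± 0.25. Submerged replicate 2 was the array farthest from the controls for 19 of the 21 called genes of this list, and without it the median was -1.77.

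Chlorophyll synthesis and carbon fixation moved in the same direction. Of 12 tetrapyrrole and chlorophyll genes, 7 fell and 1 rose (median -1.48). Their median control signal was 10.38, and 62.7% of all genes with a control mean between 9 and 11 fell (median -0.88). CHLI2 (AT5G45930), a subunit of the magnesium chelatase that starts the chlorophyll branch, stood at 5.25, 4.30 and 5.80 in submerged leaves, against 10.44, 10.60 and 10.53 in control leaves, and fell by 5.41 ± 0.31. PORB (AT4G27440), which reduces protochlorophyllide in the light, fell by 4.13 ± 0.36, and the methyltransferase CHLM (AT4G25080) by 2.71 ± 0.24. HEMA2 (AT1G09940), a glutamyl-tRNA reductase at the start of the pathway, was the member that rose, with 7.58, 8.31 and 7.56 in submerged leaves, against 6.16, 5.42 and 6.06 in control leaves. All 6 measured genes of carbon fixation and its thioredoxins fell (median -1.81). Their median control signal was 12.96, and 75.0% of all genes with a control mean between 11 and 13 fell (median -1.69). SBPASE (AT3G55800), a regulated phosphatase of the Calvin-Benson cycle, fell by 3.38 ± 0.28, phosphoribulokinase (PRK, AT1G32060) by 1.62 ± 0.23 and RCA by 1.12 ± 0.19. The NADPH-dependent thioredoxin reductase NTRC (AT2G41680) fell by 2.01 ± 0.06 and the f-type thioredoxin TRXF2 (AT5G16400) by 2.03 ± 0.11, while the m-type thioredoxin ATHM2 (AT4G03520) fell by 0.57 ± 0.08. Peroxisomal hydroxypyruvate reductase (HPR, AT1G68010) of photorespiration fell by 2.35 ± 0.33.

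Genes encoded in the plastid genome fell less and unevenly. Of 69 measured, 39 fell, 1 rose and 29 did not pass, with a median of -0.60. Their median control signal was 11.52, and 75.0% of all genes with a control mean between 11 and 13 fell (median -1.69). Those for the plastid ribosome fell most: 13 of 15 rpl and rps genes fell (median -2.14), and so did 4 of 4 rpo genes of the plastid RNA polymerase (median -1.97). The rpl14 signal (ArthCp059) was 9.54, 9.59 and 10.94 in submerged leaves, against 12.73, 12.59 and 12.49 in control leaves. In contrast, 3 of 20 psa and psb genes of the photosystems fell, with a median of -0.18, and 7 of 16 genes for the cytochrome b6f complex and the NDH complex fell, with a median of -0.30. The strongest unmoved signals among genes with a symbol lie here, and only the 1535 genes with a symbol other than the locus were ranked. Among genes with a symbol and a difference under 0.10, the 5 brightest were the plastid genes atpE, psbM, psaB, petB and psbZ, and atpE (ArthCp028) had 14.60, 14.55 and 14.68 in submerged leaves, against 14.60, 14.70 and 14.70 in control leaves. The photosystem II core gene psbA (ArthCp002) was the member that rose, by 0.62 ± 0.14, and with the replicate number as a block it missed the threshold (limma adjusted p = 0.05 after rounding). Submerged replicate 2 was the farthest array for 32 of the 40 called plastid genes.

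**Figure D3:**
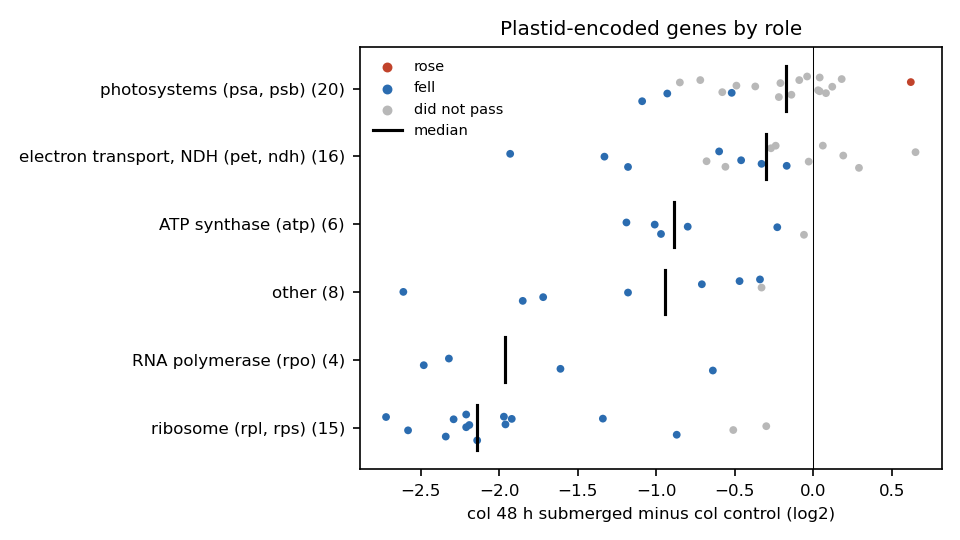
Differences (submerged minus control, log2) of the 69 plastid-encoded genes, 1 point per gene, by role, with black bars at the median of each role. Ribosome and RNA polymerase genes have medians of -2.14 and -1.97, and photosystem genes a median of -0.18.

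Most genes of starch turnover fell, while those of sugar release and transport split. Of 7 starch genes 5 fell and 0 rose (median -2.54). PWD (AT5G26570), a dikinase that phosphorylates starch for its breakdown, had 8.63, 7.89 and 9.43 in submerged leaves, against 11.18, 11.41 and 10.98 in control leaves. The disproportionating enzyme DPE1 (AT5G64860), which recycles maltotriose, fell by 3.56 ± 0.46 and the branching enzyme SBE2.2 (AT5G03650) by 2.65 ± 0.19, so both the synthetic and the degradative side of starch are among the genes that fell. QQS (AT3G30720), a small protein that affects starch content, fell by 2.70 ± 0.54. The gene cwINV6 (AT5G11920), named as a cell wall invertase, stood at 11.02, 11.67 and 11.29 in submerged leaves, against 3.92, 2.2 and 2.71 in control leaves, a rise of 8.39 ± 0.39. The tonoplast sugar importers diverged: TMT1 (AT1G20840) rose by 1.64 ± 0.21, TMT2 (AT4G35300) fell by 3.84 ± 0.27, and TMT3 (AT3G51490) stayed near the floor. The sucrose-phosphate synthase ATSPS4F (AT4G10120) fell by 2.15 ± 0.36. Of 14 SWEET sugar exporters 2 rose and 2 fell. SWEET17 (AT4G15920), a vacuolar fructose transporter, had 2.67, 2.42 and 2.39 in submerged leaves, against 7.59, 8.15 and 8.05 in control leaves, and SWEET2 (AT3G14770), also of the vacuole, had 7.55, 8.77 and 6.96 in submerged leaves, against 5.34, 4.62 and 5.34 in control leaves.

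Among 6 genes listed under glycolysis and fermentation, 1 rose, 3 fell and 2 did not pass. The rise was that of PPDK, and no other gene of the list rose. PPDK (AT4G15530), pyruvate orthophosphate dikinase, had 12.51, 12.89 and 12.79 in submerged leaves, against 6.15, 5.50 and 5.73 in control leaves, a rise of 6.94 ± 0.24 (limma adjusted p = 1.01e-07). PDC2 (AT5G54960), a pyruvate decarboxylase of the fermentation pathway, had 10.15, 9.77 and 10.26 in submerged leaves, against 9.68, 10.12 and 9.94 in control leaves, and did not pass (0.15 ± 0.18, adjusted p = 0.617). These groups overlapped. Cytosolic triose phosphate isomerase (TPI, AT3G55440) fell by 1.25 ± 0.12 and the enolase ENOC (AT2G29560) by 0.86 ± 0.13. The fall of GAPC2 (AT1G13440), a cytosolic glyceraldehyde-3-phosphate dehydrogenase, by 0.51 ± 0.15 (limma adjusted p = 0.026) was lost under 6 of 21 alternatives, among them the fit of only the 6 col arrays (adjusted p = 0.113) and each fit without 1 col control array (0.0537 to 0.0721). Other genes of fermentation and of oxygen sensing have no name in the annotation used and were not analysed here.

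Genes listed under the citrate cycle and cytochrome c, among them the cytosolic enzyme cICDH, showed small changes. Of 15 genes of the citrate cycle and cytochrome c, 7 rose and 0 fell, the largest rise was 0.83, and the median was 0.18, or 0.46 over the members above the floor, since 3 of the 15 were at the floor on all 6 arrays. The cytosolic isocitrate dehydrogenase cICDH (AT1G65930) had 13.19, 13.20 and 13.05 in submerged leaves, against 12.50, 12.33 and 12.22 in control leaves. The succinate dehydrogenase subunits SDH1-1 (AT5G66760) and SDH2-2 (AT5G40650) rose by 0.73 ± 0.11 and 0.83 ± 0.18. Among 16 genes of the mitochondrial genome 5 rose and 1 fell (median 0.17), with cox1, a subunit of cytochrome c oxidase, at 7.18, 7.18 and 7.09 in submerged leaves, against 6.57, 6.0 and 6.33 in control leaves. Larger and opposite changes were found in alternative NAD(P)H dehydrogenases, which feed electrons past complex I: NDB2 (AT4G05020) rose by 1.97 ± 0.19, NDB1 (AT4G28220) fell by 2.05 ± 0.33 and the chloroplast and mitochondrial NDC1 (AT5G08740) fell by 0.75 ± 0.10. ATP-citrate lyase makes cytosolic acetyl-CoA from 2 kinds of subunit. Its gene ACLA-1 (AT1G10670) fell by 1.21 ± 0.08, ACLA-2 (AT1G60810) fell by 1.6 ± 0.17 and ACLB-1 (AT3G06650) fell by 1.04 ± 0.14, whereas ACLA-3 (AT1G09430) had 11.30, 11.08 and 11.25 in submerged leaves, against 8.48, 8.99 and 8.95 in control leaves.

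Most enzymes that break down amino acids rose. Of 14 measured genes, 12 rose, 1 fell and 1 did not pass, with a median of 2.41, or 1.98 without submerged replicate 2. AT4G33150, named LKR/SDH for the bifunctional enzyme that opens lysine breakdown, had 10.47, 11.14 and 11.61 in submerged leaves, against 5.25, 4.74 and 4.55 in control leaves, a rise of 6.23 ± 0.31. Methionine gamma-lyase (MGL, AT1G64660) stood at 8.29, 8.58 and 8.56 in submerged leaves, against 2.59, 2.56 and 2.96 in control leaves. The control signals of MGL lay within 1 log2 unit of the floor and all submerged signals were more than 5 units above them. IVD (AT3G45300), isovaleryl-CoA dehydrogenase of branched-chain amino acid breakdown, rose by 4.88 ± 0.24, and the methylmalonate semialdehyde dehydrogenase ALDH6B2 (AT2G14170) by 3.03 ± 0.17. The asparaginase ASPGA1 (AT5G08100) was the member that fell, by 0.50 ± 0.06.

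Lipid breakdown rose in part. Of 8 genes, 5 rose and 0 fell (median 1.01). SDP1 (AT5G04040), the main triacylglycerol lipase of oil bodies, had 9.34, 10.10 and 9.99 in submerged leaves, against 6.96, 7.41 and 7.28 in control leaves. The beta-oxidation enzyme AIM1 (AT4G29010) rose by 1.01 ± 0.11, PAHX (AT2G01490), which starts the breakdown of phytanoyl-CoA, by 1.05 ± 0.09, and the amidase FAAH (AT5G64440) by 1.02 ± 0.10. ICL (AT3G21720), isocitrate lyase of the glyoxylate cycle, was at the floor on all 6 arrays. In purine and urea recycling, allantoate amidohydrolase (AAH, AT4G20070) rose by 1.83 ± 0.26, AMP deaminase (FAC1, AT2G38280) fell by 0.69 ± 0.14 and 3 of 5 genes did not pass. Aldehyde dehydrogenases split, with 3 of 8 up and 2 down. ALDH7B4 (AT1G54100) rose by 3.98 ± 0.17, and ALDH3F1 (AT4G36250) had 4.72, 2.29 and 5.83 in submerged leaves, against 9.60, 9.49 and 9.62 in control leaves. Of 10 nitrate and peptide transporters, 1 rose and 5 fell. NRT2.5 (AT1G12940), a high-affinity nitrate transporter of nitrogen-starved plants, had 10.15, 10.00 and 10.24 in submerged leaves, against 2.87, 2.80 and 2.2 in control leaves, while NPF6.4 (AT3G21670) fell by 5.42 ± 0.28 and NPF3.1 (AT1G68570) by 4.05 ± 0.38.

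**Figure D4:**
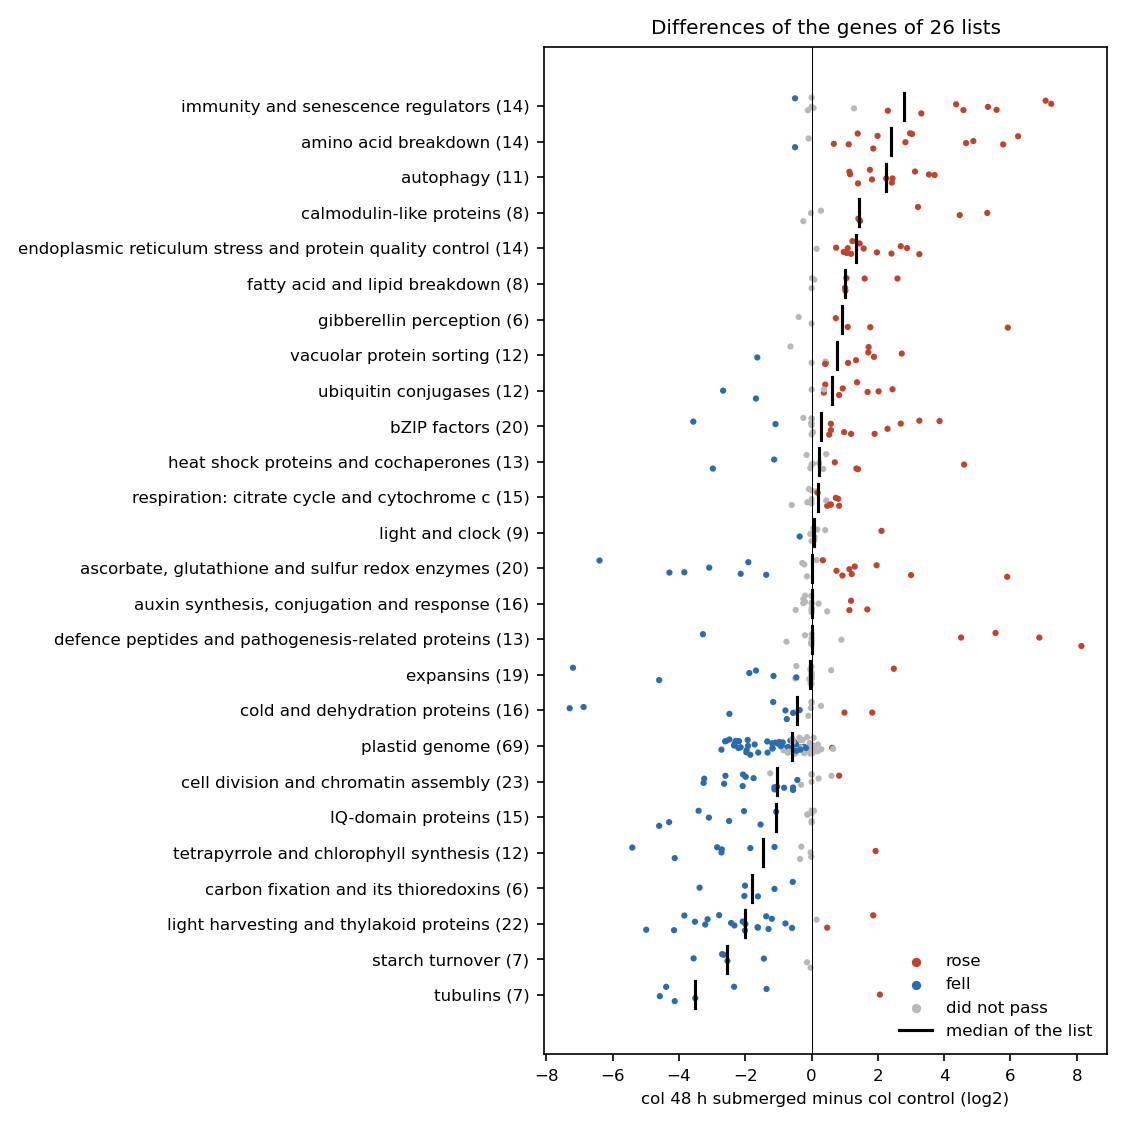
Differences (submerged minus control, log2) of the genes of 26 lists, 1 point per gene, with the number of measured genes in brackets and a black bar at each list's median. Lists run from immunity and senescence regulators at the top, with a median of 2.80, to tubulins at the bottom, with a median of -3.51.

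All measured genes of autophagy rose, and those of energy signalling rose in part. Of 7 energy signalling genes 4 rose, 1 fell and 2 did not pass. AKINBETA1 (AT5G21170), a beta subunit of the starvation kinase SnRK1, had 10.78, 10.65 and 10.79 in submerged leaves, against 7.33, 6.67 and 6.98 in control leaves, while the gene named KINbeta2 (AT4G16360) fell by 0.69 ± 0.15. The S1-group transcription factors bZIP44 (AT1G75390) and BZIP53 (AT3G62420) rose by 3.86 ± 0.26 and 1.90 ± 0.14. All 11 measured autophagy genes rose, 9 of them ATG8 genes that encode the ubiquitin-like coat protein of autophagosomes, by 1.14 to 3.71 and with a median of 2.25. APG8A (AT4G21980) had 11.02, 11.67 and 11.08 in submerged leaves, against 7.48, 7.44 and 7.73 in control leaves. ATG8E (AT2G45170) rose by 3.54 ± 0.24, ATG8B (AT4G04620) by 3.12 ± 0.18 and ATG8H (AT3G06420) by 2.44 ± 0.26. Submerged replicate 2 was the highest of the 3 arrays for all 11 genes, and without it the median was 1.99.

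In protein and membrane turnover, rises outnumbered falls in vacuolar sorting and ubiquitin conjugation, and proteases were mixed. Of 12 vacuolar protein sorting genes, 8 rose and 1 fell (median 0.77). The ESCRT-III subunits VPS60.1 (AT3G10640), VPS46.2 (AT1G73030) and VPS2.1 (AT2G06530) rose by 2.72 ± 0.20, 1.88 ± 0.16 and 1.72 ± 0.11, and VPS2.2 (AT5G44560) fell by 1.64 ± 0.26. Of 12 ubiquitin-conjugating enzymes, 8 rose and 2 fell. UBC28 (AT1G64230) had 13.52, 13.19 and 13.32 in submerged leaves, against 11.52, 11.66 and 11.79 in control leaves, and the endoplasmic reticulum enzyme UBC32 (AT3G17000) rose by 2.02 ± 0.17, whereas the cell-cycle enzyme UBC20 (AT1G50490) fell by 2.67 ± 0.27. Of 12 vacuolar and other proteases 5 rose and 3 fell (median 0.03). GAMMA-VPE (AT4G32940), a vacuolar processing enzyme of leaves, had 13.45, 13.32 and 13.43 in submerged leaves, against 10.78, 9.49 and 10.01 in control leaves. The aspartic protease APA1 (AT1G11910) and the tripeptidyl peptidase TPP2 (AT4G20850) rose by 1.72 ± 0.11 and 1.85 ± 0.17, and the extracellular subtilase ARA12 (AT5G67360) fell by 2.03 ± 0.24. The 12 ubiquitin-specific proteases gave 3 rises and 4 falls, up to 1.70 in UBP18 (AT4G31670) and down to -1.62 in UBP21 (AT5G46740).

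Genes of protein folding in the endoplasmic reticulum rose nearly throughout: 13 of 14 rose and 0 fell, with a median of 1.34. BZIP60 (AT1G42990), a main regulator of the unfolded protein response, had 10.45, 10.71 and 10.13 in submerged leaves, against 7.19, 7.06 and 7.29 in control leaves, a rise of 3.25 ± 0.18. The membrane-bound regulator BZIP28 (AT3G10800) rose by 2.69 ± 0.18, and the luminal cochaperone ATERDJ3B (AT3G62600) by 2.41 ± 0.15. Heat shock proteins and cochaperones did not move as a set, with 4 of 13 up and 2 down (median 0.23). Hsp70-2 (AT5G02490), a cytosolic chaperone, rose by 4.60 ± 0.23, and the gene named ROF2 and FKBP65 (AT5G48570), an immunophilin induced by heat, fell by 2.98 ± 0.41. Among 20 ascorbate, glutathione and sulfur redox genes, 9 rose and 7 fell. Plastid enzymes are among the falls: thylakoid ascorbate peroxidase (TAPX, AT1G77490) fell by 3.84 ± 0.31 and the plastid reductase AOR (AT1G23740) by 4.29 ± 0.27. The methionine sulfoxide reductases show both directions in 1 family, with MSRB9 (AT4G21850) at 8.30, 8.57 and 8.03 in submerged leaves, against 2.31, 2.30 and 2.59 in control leaves, and MSRB6 (AT4G04840) at 2.47, 2.21 and 2.56 in submerged leaves, against 8.69, 8.85 and 8.90 in control leaves.

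Regulators of immunity and senescence rose in part. Of 14 measured, 8 rose, 1 fell (-0.5) and 5 did not pass, of which 2 were at the floor on all 6 arrays (median 2.80). WRKY22 (AT4G01250), a transcription factor of pattern-triggered immunity, had 9.69, 9.42 and 8.87 in submerged leaves, against 2.24, 2.24 and 2.32 in control leaves, so that all control signals lay near the floor. The zinc finger factor STZ (AT1G27730) rose by 7.23 ± 0.35, the senescence factor WRKY6 (AT1G62300) by 5.58 ± 0.37, and the receptor-associated kinase BIK1 (AT2G39660) by 4.36 ± 0.27. The receptor kinase EFR (AT5G20480), which binds bacterial elongation factor Tu, rose by 2.30 ± 0.13, SAG101 (AT5G14930), a partner of EDS1, by 3.31 ± 0.36, and WRKY53 (AT4G23810), a regulator of leaf senescence, by 4.58 ± 0.61.

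Defence proteins themselves were uneven, with 4 of 13 up, 1 down and 4 at the floor throughout. PDF1.4 (AT1G19610), a plant defensin, had 11.34, 10.95 and 11.17 in submerged leaves, against 2.93, 3.25 and 2.86 in control leaves. OSM34 (AT4G11650), an osmotin-like protein, had 8.33, 10.38 and 8.54 in submerged leaves, against the floor on all 3 control arrays, a rise of at least 6.87. The chitinase ChiC (AT4G19810) rose by 5.55 ± 0.30, and the thionin THI2.2 (AT5G36910) fell by 3.28 ± 0.23. PDF1.2 (AT5G44420), a marker of combined jasmonate and ethylene signalling, had 4.96, 2.72 and 6.39 in submerged leaves, against 3.97, 6.78 and 5.60 in control leaves, and did not pass (adjusted p = 0.695). The spread of PDF1.2 within each group was larger than the difference between them. Families linked to calcium and defence signalling also held rises: 5 of 8 calmodulin-like genes rose and 0 fell (median 1.44), with CML41 (AT3G50770) up by 5.30 ± 0.23 and CML38 (AT1G76650), a calcium sensor found in stress granules, up by 4.47 ± 0.45. Of 8 glutamate receptor-like channels 3 rose and 2 fell, with ATGLR1.2 (AT5G48400) at 7.61, 8.61 and 7.22 in submerged leaves, against 2.45 on each control array. Of 9 plant U-box ubiquitin ligases 5 rose and 1 fell. PUB22 (AT3G52450), PUB23 (AT2G35930) and PUB24 (AT3G11840), which dampen immune responses, rose by 6.77 ± 0.22, 5.69 ± 0.17 and 3.37 ± 0.22. Class III peroxidases gave 2 rises and 0 falls among 6, and Prx37 (AT4G08770) rose by 7.43 ± 0.24. Subtilases gave 2 rises and 1 fall (-3.18) among 8, and 5 did not pass. The subtilase SBT3.3 (AT1G32960), tied to immune priming, rose by 2.11 ± 0.40. Among all genes 20.4% rose and 22.1% fell.

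**Figure D5:**
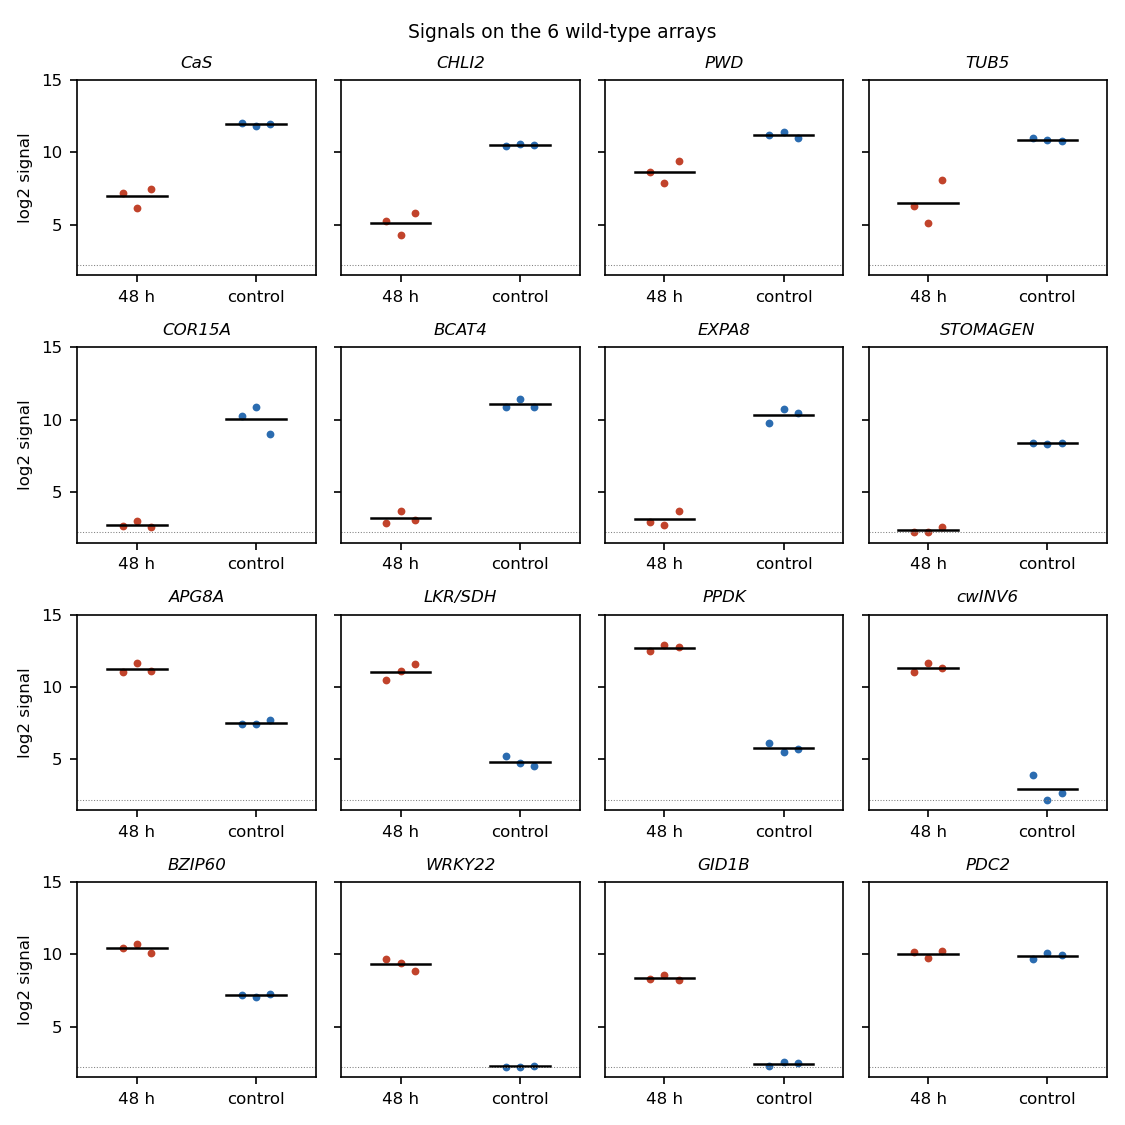
Log2 signals of 16 genes on the 3 submerged (left, red) and 3 control (right, blue) wild-type arrays, 1 point per array, with a black bar at the mean and a dotted line at the floor of 2.2. The 8 upper genes are lower in submerged leaves, 7 of the 8 lower genes are higher, and the groups of PDC2 overlap.

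Hormone genes measured here changed in selected members. Ethylene genes gave 2 rises and 1 fall among 4. Jasmonate genes gave 1 rise and 1 fall among 7, and 5 did not pass (median -0.01). In ethylene signalling, EIN3 (AT3G20770), the main transcription factor of the pathway, had 9.86, 10.11 and 10.07 in submerged leaves, against 8.32, 8.42 and 8.62 in control leaves, a rise of 1.56 ± 0.12. ETP2 (AT3G18910), an F-box protein that acts on EIN2, fell by 0.99 ± 0.20, and RTE1 (AT2G26070) did not pass. Gibberellin perception gave 4 rises and 0 falls among 6 genes. The receptor GID1B (AT3G63010) had 8.31, 8.56 and 8.23 in submerged leaves, against 2.30, 2.58 and 2.47 in control leaves, while GID1C (AT5G27320) rose by 1.77 ± 0.18 and GID1A (AT3G05120) did not pass at -0.39 ± 0.15 (adjusted p = 0.0671). The F-box protein SLY1 (AT4G24210), which acts below the receptors, rose by 1.09 ± 0.14. Of 16 auxin genes 3 rose and 0 fell, 6 were at the floor throughout, and the largest rise was 1.68 ± 0.30 in the glucosyltransferase IAGLU (AT4G15550). Of 6 cytokinin response regulators the A-type RR16 (AT2G40670) fell by 2.37 ± 0.41 and the A-type ARR15 (AT1G74890) fell by 2.01 ± 0.25, and 3 were at the floor throughout. The jasmonate factors MYC3 (AT5G46760) and MYC4 (AT4G17880) differed in direction, with a rise of 1.41 ± 0.32 and a fall to 3.87, 3.81 and 3.81 in submerged leaves, against 6.61, 5.57 and 6.55 in control leaves. In a fit of only the 6 col arrays MYC3 no longer passed (limma adjusted p = 0.06).

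Tubulin genes mostly fell, and genes of cell division and IQ-domain proteins fell in part. Of 7 tubulin genes 6 fell and 1 rose (median -3.51). TUB5 (AT1G20010) had 6.28, 5.10 and 8.10 in submerged leaves, against 10.99, 10.87 and 10.79 in control leaves, TUB7 (AT2G29550) fell by 4.58 ± 0.27 and TUB1 (AT1G75780) by 4.13 ± 0.28. TUA1 (AT1G64740), an alpha-tubulin, rose by 2.06 ± 0.37. Of 23 genes of cell division and chromatin assembly, 15 fell, 1 rose and 7 did not pass (median -1.04). The histone H2B gene HTB2 (AT5G22880) had 5.37, 5.56 and 5.26 in submerged leaves, against 8.55, 8.52 and 8.89 in control leaves, and the replication helicase subunit PRL (AT4G02060) had 2.81, 2.73 and 2.36 in submerged leaves, against 5.64, 6.02 and 5.96 in control leaves. SGA2 (AT1G66740), a histone chaperone, rose by 0.83 ± 0.18. The IQ-domain proteins, which bind calmodulin and microtubules, gave 8 falls and 0 rises among 15, and the largest was 4.60 ± 0.25 in iqd21 (AT3G49260).

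Among wall-loosening genes falls outnumbered rises. Of 19 expansins 6 fell, 1 rose and 5 were at the floor throughout. EXPA8 (AT2G40610) had 2.93, 2.70 and 3.68 in submerged leaves, against 9.76, 10.72 and 10.45 in control leaves, and EXPA4 (AT2G39700) was at the floor on all submerged arrays, a difference of -4.60 that is a bound. EXLB1 (AT4G17030), an expansin-like gene, rose by 2.48 ± 0.50. Of 10 xyloglucan-modifying enzymes 1 rose and 1 fell: XTH32 (AT2G36870) fell by 5.92 ± 0.11 and EXGT-A3 (AT2G01850) rose by 0.96 ± 0.20. Of 15 GH9 cellulase-like genes 5 fell and 0 rose, with GH9C2 (AT1G64390) down by 6.81 ± 0.20 and GH9B7 (AT1G75680) by 6.51 ± 0.26. The fall of a further member, GH9B5 (AT1G19940), by 0.83 ± 0.29 (limma adjusted p = 0.0456) was lost under 14 of 20 alternatives. The RALF-like signal peptides gave 2 rises and 4 falls among 11: RALFL34 (AT5G67070) had 3.40, 3.25 and 4.29 in submerged leaves, against 10.20, 10.71 and 10.62 in control leaves, and RALFL18 (AT2G33130) rose by 2.98 ± 0.23. Of 6 surface growth genes 3 rose and 3 fell. ARL (AT2G44080) had 10.74, 10.70 and 11.07 in submerged leaves, against 3.54, 4.43 and 5.64 in control leaves, EXO (AT4G08950) rose by 2.88 ± 0.23 and the receptor kinase FER (AT3G51550), which binds RALF peptides, by 0.54 ± 0.10. Its relative THE1 (AT5G54380) fell by 2.05 ± 0.24 and COB (AT5G60920), needed for cellulose orientation, by 1.32 ± 0.10. STOMAGEN (AT4G12970), a mesophyll peptide that promotes stomata, had 2.26, 2.23 and 2.61 in submerged leaves, against 8.39, 8.35 and 8.36 in control leaves, while SPCH (AT5G53210) and MUTE (AT3G06120), which drive the stomatal lineage, were at the floor in both groups.

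Cold and dehydration proteins gave 2 rises and 8 falls among 16 (median -0.45). COR15A (AT2G42540), a plastid protein that protects membranes in the cold, had 2.68, 2.97 and 2.58 in submerged leaves, against 10.23, 10.88 and 9.02 in control leaves, and its tandem copy COR15B (AT2G42530) fell by 6.88 ± 0.39. Cross-hybridisation between the copies was not tested. The dehydrin LTI30 (AT3G50970) fell by 2.48 ± 0.36, and DI19 (AT1G56280), a zinc finger protein of drought responses, rose by 1.83 ± 0.16. Of 7 wax and cuticle genes 2 rose and 2 fell: CER26 (AT4G13840), which lengthens wax precursors, fell by 5.46 ± 0.33, and the repressor named DEWAX (AT5G61590), for Decrease Wax Biosynthesis, had 10.44, 9.82 and 10.74 in submerged leaves, against 8.70, 8.31 and 8.53 in control leaves.

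Specialised metabolism held wide changes of single genes in both directions. Glucosinolate synthesis and transport gave 1 rise and 3 falls among 6 genes, and UGT74B1 (AT1G24100) did not pass (-0.07, limma adjusted p = 0.888). BCAT4 (AT3G19710), the first step of methionine-derived glucosinolate synthesis, had 2.88, 3.72 and 3.05 in submerged leaves, against 10.90, 11.41 and 10.88 in control leaves, a fall of 7.84 ± 0.23 on the log2 scale. The glucosinolate transporters differed in direction, with GTR1 (AT3G47960) down by 1.78 ± 0.26 and GTR2 (AT5G62680) up by 2.40 ± 0.16. Of 13 phenylpropanoid and flavonoid genes 3 rose, 0 fell and 6 were at the floor throughout. CCOAMT (AT1G67980), a caffeoyl-CoA methyltransferase, had 11.16, 11.71 and 11.45 in submerged leaves, against 3.40, 2.72 and 3.05 in control leaves, and F6'H1 (AT3G13610), which makes the scopoletin precursor, had 9.53, 11.11 and 9.12 in submerged leaves, against 2.27, 2.23 and 2.21 in control leaves. Dihydroflavonol reductase (DFR, AT5G42800) of the anthocyanin branch did not pass and lay near the floor. Glutathione transferases gave 1 rise and 3 falls among 14, and GSTU20 (AT1G78370) had 2.79, 2.61 and 3.30 in submerged leaves, against 11.74, 11.86 and 11.45 in control leaves. Both this list and the phenylpropanoid list held a smaller share of calls than all genes (42.5%).

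Large gene families held calls in both directions, counted over the members that the annotation names and not over whole families. Over all genes 20.4% rose and 22.1% fell. The UDP-glycosyltransferases were near these shares, and the beta-glucosidases, AGAMOUS-like factors and tetraspanins were below them. Counts of that size show nothing about a family as a group. The 48 UDP-glycosyltransferases gave 10 rises and 11 falls (median 0), from 5.47 ± 0.33 in UGT76B1 (AT3G11340), which glucosylates isoleucic acid, to -4.62 ± 0.23 in UGT76E11 (AT3G46670). The 23 cytochrome P450s gave 6 rises and 2 falls, with CYP71B23 (AT3G26210) at 11.75, 11.93 and 12.12 in submerged leaves, against 5.21, 4.86 and 5.94 in control leaves. The 29 serine carboxypeptidase-like genes gave 2 rises and 11 falls, with a median of -0.13, or -0.66 over members above the floor, that became 0.18 under median centring, and scpl35 (AT5G08260) fell by 5.90 ± 0.13. The 23 trichome birefringence-like wall acetylation genes gave 2 rises and 7 falls, with a median of -0.12, or -0.31 over members above the floor, that became 0.19 under median centring, and TBL26 (AT4G01080) fell by 5.30 ± 0.55. The 20 beta-glucosidases gave 3 rises and 4 falls, among them BGLU25 (AT3G03640) with 3.88 ± 0.29 and BGLU40 (AT1G26560) with -5.24 ± 0.29. The AGAMOUS-like MADS-box factors gave 3 rises and 4 falls among 42 genes of which 25 were at the floor throughout. The 15 tetraspanins gave 3 rises and 2 falls, and TET8 (AT2G23810) had 12.36, 12.85 and 12.12 in submerged leaves, against 8.03, 7.99 and 8.27 in control leaves.

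The 20 bZIP factors gave 10 rises and 2 falls, and BZIP61 (AT3G58120) fell by 3.57 ± 0.16. Of 7 iron homeostasis regulators 3 rose and 2 fell: bHLH104 (AT4G14410) and bHLH121 (AT3G19860) rose by 1.06 ± 0.15 and 0.87 ± 0.11, while the related bHLH115 (AT1G51070) fell by 0.82 ± 0.14 and bHLH34 (AT3G23210) fell by 1.57 ± 0.17. Of 9 light and clock genes 1 rose and 1 fell. GI (AT1G22770), a clock component whose level swings over the day, had 9.13, 8.95 and 9.32 in submerged leaves, against 9.16, 9.15 and 8.81 in control leaves, and did not pass (adjusted p = 0.659). HYH (AT3G17609), a light-signalling factor, rose by 2.11 ± 0.42. Of 5 subunits of the vacuolar proton pump 1 fell and 0 rose, and VHA-A1 (AT2G28520) had 6.33, 6.64 and 6.37 in submerged leaves, against 6.54, 6.63 and 6.44 in control leaves. The cation/H+ exchangers CHX16 (AT1G64170) and CHX20 (AT3G53720) rose by 6.15 ± 0.39 and 3.48 ± 0.29, and 4 of the 7 genes of that family were at the floor throughout.

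Whether this response is particular to the wild type was tested as the response of col minus the response of atg5. It differed for 80 of 13355 genes (0.599%), 35 above and 45 below the mutant's response, and 65 of the 80 had passed the test in col. That count was unstable: it was 6 with the replicate number within each genotype as a block, which leaves fewer residual degrees of freedom. It was 171 without genes at the floor on all col arrays and 51 to 186 when 1 array was left out, with 186 without col 48 h replicate 3. Without adjustment 1532 genes (11.5%) had a p under 0.05. The 5 largest fitted differences were those of AT2G19200, AT5G37590, M10 (AT2G41280), AT4G29020 and AT5G45670. AT2G19200 lay at the floor on all 6 col arrays, so that its fitted value rests on atg5 alone, with means of 5.94 in submerged and 2.2 in control atg5 leaves. AT4G29020 had 3.09, 3.22 and 3.57 in submerged col, against 7.16, 6.48 and 7.34 in control col, a change of -3.71 in col and -1.06 in atg5. M10 had 3.35, 3.30 and 2.94 in submerged col, against 2.2, 2.45 and 2.35 in control col, a rise of 0.86 in col and 3.72 in atg5. Of the genes named above, NTRC differed by -2.01 in col and -1.27 in atg5 (difference -0.74 ± 0.09, adjusted p = 0.0148). The rise of APG8A was 3.71 in col and 3.06 in atg5, and this difference did not pass (adjusted p = 0.402).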

How the data were processed

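The deposited series table holds log2 signals of 22810 probe sets on 12 one-colour Affymetrix arrays. The log2 scale was read from the deposited values. Per the submitters' processing notes the tools were MAS5 and GCRMA, and what each did is not given in the sources used here. Of 22746 probe sets other than controls, GEO's annotation gives 1 gene to 13513, several to 503 and none to 8730, and only those with 1 gene were used. For 147 genes with more than 1 probe set the brightest was taken, which left 13355 genes, of which 13285 matched RefSeq by Entrez ID.

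Signals were used unchanged. All 12 arrays entered 1 fit in limma 3.58.1 under R 4.3.3, with a mean for each of the 4 groups; 8 degrees of freedom were residual and 0.488 came from the prior. Tests were two-sided, and p-values were adjusted after Benjamini and Hochberg across the genes, with 0.05 as the threshold. So low a prior leaves the spread of a gene almost wholly to its own arrays, and 11 calls differ by under 0.10. The fit was checked on simulated data. The number of arrays limits the precision.

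The comparison, its genes and the lists were chosen with earlier results of these data known. The 65 lists with 852 genes were set up from the symbols and synonyms of the annotation, since planned patterns on gene descriptions matched few genes. A further 23 lists of 432 loci had 59 measured under a name, most of them also in the first lists. Named genes were drawn by a rule, and not every gene so drawn is given in the text. For each list the rule took the largest called changes (at most 4, both directions where found) and all members of lists of up to 6. It also took the 5 brightest with a symbol and a difference under 0.10, and the 5 largest rises and falls at least 2 above the floor. The last were 6 with a symbol nearest the median size of change and the 5 largest differences from atg5. Marker genes were named apart from this. Lists have counts and medians and no test of their own.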

Additional observations from a re-analysis of the deposited data

Results flagged for a closer look

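The response to submergence differed between col and atg5 for 5 genes named here by the size of that difference, tested as the response of col minus that of atg5 with limma over all 12 arrays. For AT2G19200 the fitted value was -3.74 (adjusted p = 0.00392), but all 6 col arrays lay at the floor, so the response of col was not measured and the value rests on atg5 alone. AT5G37590 gave -3.22 ± 0.47 (adjusted p = 0.0282), with a change of -1.29 in col and 1.93 in atg5. M10 (AT2G41280) gave -2.86 ± 0.28 (adjusted p = 0.00608). AT4G29020 gave -2.65 ± 0.34 (adjusted p = 0.0163). AT5G45670 gave -2.57 ± 0.42 (adjusted p = 0.0437), with a change of -3.12 in col and -0.54 in atg5. These 5 genes were picked for their size, and calls of this test move with the processing, as given below.

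Probe sets that no comparison above uses also carried signal. Of the 8730 probe sets without a gene name, 2465 rose and 2494 fell in submerged against control col leaves, so that 56.8% were called. They were fitted apart from the named genes, with the same design and their own adjustment. Of the named genes 42.5% were called, or 56.4% of those above the floor on at least 1 wild-type array. The share of unnamed probe sets at the floor is not given here, so these shares cannot be compared directly.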

How the results depend on the processing

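Of 307 genes chosen by the naming rule, 265 passed the test, and 244 of these passed under every alternative run for them, of up to 21. The counts of rises and falls stayed within 1.5 times of those reported under all alternatives except median centring, where 8393 genes rose. Leaving out 1 array at a time gave 2533 to 2762 rises and 2715 to 2891 falls. The 80 genes that responded differently in col and atg5 became 134 under median centring, 156 without dim genes, 171 without genes at the floor on all col arrays, 44 with a change of at least 2-fold and 6 with replicate number as a block, and 51 to 186 when 1 array was left out. The widest of these were 186 without col 48 h replicate 3, 137 without col control replicate 3, 126 without col control replicate 2 and 51 without atg5 48 h replicate 1. Replicate numbers did not pair the arrays: deviations of same-numbered submerged and control arrays correlated at 0.0371, 0.00572 and 0.0236, and not every array correlated best with its own number. The replicate block was set within each genotype and leaves fewer residual degrees of freedom, and with it 2492 genes rose and 2702 fell. Under median centring 10 genes that had not passed turned positive and passed, namely NDB4 at 0.28, MUTE at 0.30, AOP3 at 0.25, UGLYAH at 0.26, SPCH at 0.29, UF3GT at 0.30, RR18 at 0.30, psbZ at 0.22, atpE at 0.25 and petB at 0.27, each near the shift of 0.3 that centring gives all genes. UGLYAH also turned to 0.19 under quantile normalization. A further 20 of the 307 genes gained a call under median centring, such as GI at 0.40 (limma adjusted p = 0.0103), and 5 lost theirs. Of 65 list medians, 37 moved by more than their spread between replicate arrays under centring without turning, 24 without dim genes, 17 without genes at the floor on all col arrays and 1 to 6 without 1 col array. Medians that turned under centring were those of sucrose synthesis and vacuolar sugar transport (0.18), growth at the cell surface (0.10), serine carboxypeptidase-like genes (0.18) and trichome birefringence-like genes (0.19), and that of iron homeostasis regulators turned to -0.07 without col 48 h replicate 3 (range -0.07 to 0.44 when 1 array was left out). Arrays carry no detection calls here, so signals near the floor set no lower limit. With the replicate number as a block, SWEET11 (AT3G48740) and psbA (ArthCp002) no longer passed (limma adjusted p = 0.0632 and 0.05).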
